A study of Mus musculus with 12 samples.

Results

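Levels of 40 genes of NF-kappa-B and cytokine signalling (15 genes), interferon signalling and response (18 genes) and class I antigen presentation (7 genes) were examined in mouse brain RNA. They were listed by name for their known roles, but with earlier results of these data known. All 40 were found among the 27131 genes of the expression table. Over 12 libraries, 33 of the 40 had a mean of at least 0.5 FPKM (fragments scaled by transcript length and library size), the minimum set for testing, and 16203 genes in all reached it. Xaf1, at 0.671 FPKM, was the lowest member inside that minimum and Tlr4, at 0.495 FPKM, the highest outside it.

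The brains came from mice aged 6 weeks on the C57BL/6J background. The groups were 4 mice of each of 2 independent Plat-/- strains, which the titles call Old and New, and 4 wild-type mice (WT). Plat is the gene of tissue plasminogen activator, the enzyme that makes plasmin from plasminogen outside cells. What each strain lacks of Plat is not in the labels. The knockout mice were kept by the laboratory and the WT mice were bought from Jackson Labs, so a difference that goes with Plat and 1 that goes with the origin of the mice cannot be told apart.

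NF-kappa-B proteins are transcription factors held in the cytoplasm by I-kappa-B inhibitors until a cytokine or a microbial product triggers destruction of the inhibitor. Among the genes they then switch on are those of their own brakes, Nfkbia and Tnfaip3. Interferons act through JAK kinases and STAT proteins to raise genes that hinder viruses, and both interferon and NF-kappa-B raise the class I molecules that show peptides to T cells. In healthy brain many of these genes are active at a low, resting level, with microglia and endothelium among the cells that use them.

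Plat was checked first. Its level was 1.68, 1.87, 1.39 and 2.09 FPKM in Old 1 to 4, 2.82, 2.77, 3.15 and 2.77 FPKM in New 1 to 4, and 9.83, 8.01, 8.94 and 6.93 FPKM in WT 1 to 4. Plat fell to 20.9% of the WT mean in Old and to 34.1% in New (limma adjusted p = 1.79e-05 and 0.00212). Old 1 and WT 4, from different groups, stood apart from the other 10 libraries. Across the tested genes, which are not independent replicates, their Spearman correlation was 0.964 with each other, 0.921 to 0.939 with the other 10, and 0.959 to 0.972 among those 10. Results are therefore given with and without this pair. Ddx3y, which lies on the Y chromosome, was above 1 FPKM in Old 1, Old 4, New 1 and WT 4 and near 0 in the other 8, and sex is not given. The samples are labelled as cerebral cortex, but the dissection removed only olfactory bulb and cerebellum. The choroid plexus transcript Ttr ran at 198 to 262 FPKM in Old, 196 to 230 in New and 154 to 262 in WT, beside 170 to 254, 176 to 203 and 161 to 234 FPKM of the cortical glutamate transporter Slc17a7.

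The promoters of several members hold letters that match the consensus of elements through which these pathways act. A few of those with a match are shown. RefSeq promoters (250 bases before the start of transcription, GRCm38.p6, which is mm10) were matched for 36 of the 40 genes, with 44 starts between them. The interferon-stimulated response core (GAAA, any 2 bases, then GAAA, on either strand) was found in 9 of the 44 windows, against 2.98% of the 32851 promoters of all genes. The kappa-B consensus (GGG, A or G, any 2 bases, 2 bases of C or T, then CC) was found in 14 of 44, against 7.25% of all. The STAT palindrome (TTC and GAA with any 3 bases between) was found in 9 of 44, against 7.02%. Some genes count more than once, and the H2-K1 windows hold the same match. By gene, the response core was in 9 of 36 (3.46% of all genes), the kappa-B consensus in 11 of 36 (8.23%) and the STAT palindrome in 9 of 36 (8.13%). Both strands were searched, and matches overlapped one another in Bst2, Ifit2, Isg15, Myd88, Nfkb2, H2-K1 and H2-D1. A match says only that these letters are present. Each stretch below is written 5′ to 3′ along the gene's own strand, with the matches in capitals.
Nfkbia: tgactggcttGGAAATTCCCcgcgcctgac
Tnfaip3: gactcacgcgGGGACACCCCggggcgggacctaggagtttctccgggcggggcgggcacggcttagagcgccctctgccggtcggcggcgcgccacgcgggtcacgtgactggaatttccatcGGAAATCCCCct
Isg15: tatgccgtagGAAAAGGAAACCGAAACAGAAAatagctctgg
Ifit1: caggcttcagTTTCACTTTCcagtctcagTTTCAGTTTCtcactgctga
B2m: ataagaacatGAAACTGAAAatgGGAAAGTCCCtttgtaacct
H2-K1: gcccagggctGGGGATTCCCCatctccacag
H2-D1: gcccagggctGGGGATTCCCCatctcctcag
The capitals mark the kappa-B consensus in Nfkbia (chr12:55492657-55492686, minus strand), Tnfaip3 (chr10:19015411-19015545, minus strand), H2-K1 (chr17:34000438-34000468, minus strand) and H2-D1 (chr17:35262913-35262943, plus strand). They mark the response core in Isg15 (chr4:156200865-156200906, minus strand) and Ifit1 (chr19:34640775-34640823, plus strand), and 1 of each in B2m (chr2:122147538-122147580, plus strand). The Ifitm1 window held none of the 3, which says only that these letters are not there. Nor did the windows of the abundant members Il6st, Stat3, Tapbp and Rela, or another start of Tnfaip3. Nfkb1 was not among the 36 genes matched.

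The 40 genes spanned a wide range of levels. B2m and the cytokine co-receptor Il6st had means over 10 FPKM, 24 members lay between 1 and 10 FPKM, and 14 lay under 1 FPKM. In whole tissue, a lower level from fewer cells of a type and from less RNA per cell cannot be told apart.

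**Figure D1:**
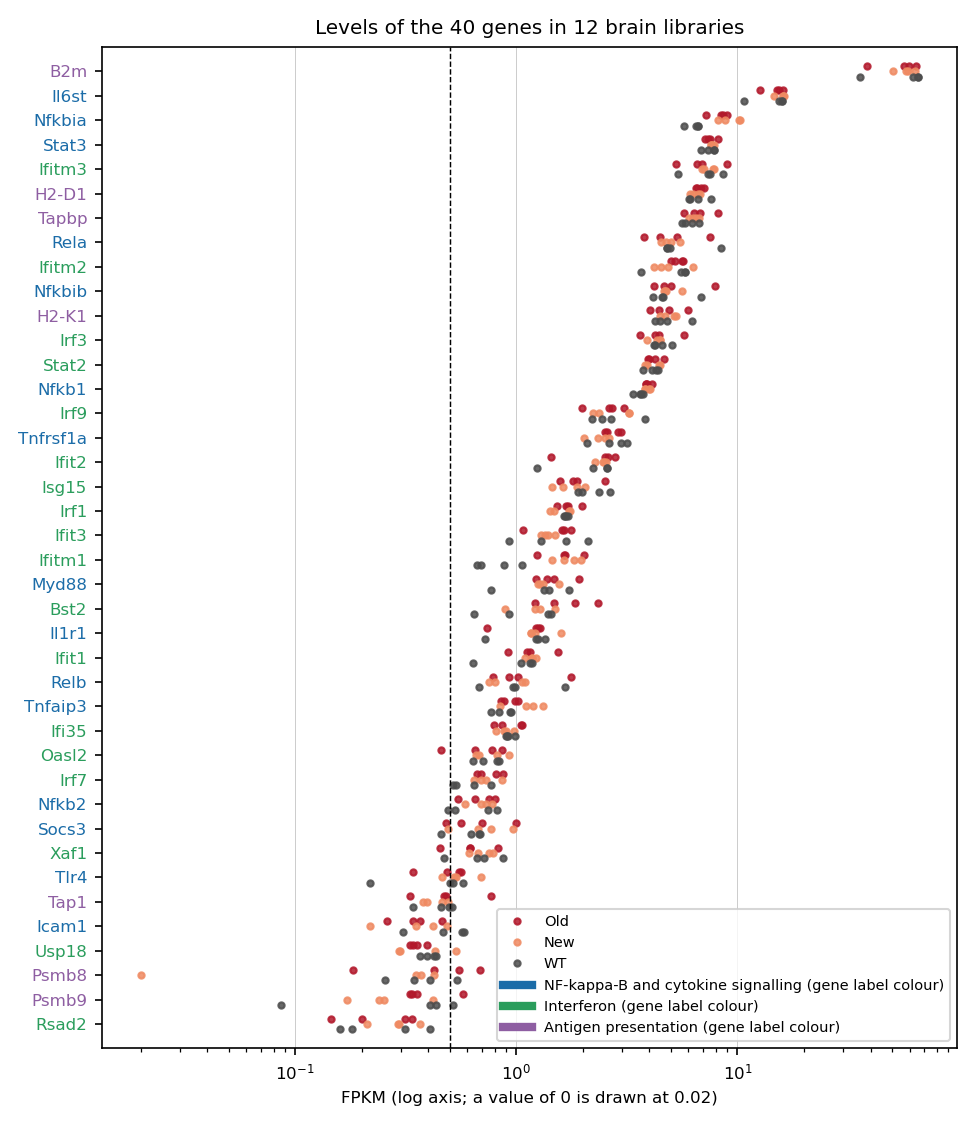
Level of each of the 40 genes in every library (points; FPKM on a log axis, with a value of 0 drawn at 0.02), ordered by mean and coloured by group. B2m leads with 38.7 to 64.1 FPKM in Old, 50.4 to 63.7 in New and 35.9 to 65.6 in WT, and 7 genes lie left of the dashed line at 0.5 FPKM.

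No member passed an adjusted p of 0.05 in any comparison (limma on log2(FPKM + 0.1), adjusted over all 16203 tested genes). In Old minus WT, 0 of 33 members passed, against 0.0247% of all tested genes; at an unadjusted p under 0.05 there were 3, Ifitm1, Nfkbia and Bst2 (9.09%, against 1.67%). In New minus WT, 0 of 33 passed, against 0.00617%, and Ifitm1 and Nfkbia had an unadjusted p under 0.05 (6.06%, against 2.22%). The comparisons share the WT libraries, so Ifitm1 and Nfkbia appearing in both is not a second, separate observation. With the mean of Old and New minus WT, 0 passed (0.0123% of all genes) and the same 2 genes had an unadjusted p under 0.05 (2.22% of all genes). In Old minus New, 0 passed (0.0123% of all genes) and 0 had an unadjusted p under 0.05 (1.14% of all genes).

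Ifitm1, Nfkbia and Nfkb1 were the 3 members whose knockout libraries all lay above all 4 WT libraries. This held for Old, where 0.796% of all genes did so, for New (1.94% of all genes), and for the 8 knockout libraries together (0.29% of all genes). These 3 genes also lay wholly above WT without Old 1 and WT 4, but so did 4.89% of all genes in Old, 5.00% in New and 1.57% in both together. After median ratio scaling 2 of the 3 did (Ifitm1 and Nfkbia), beside 0.488% of all genes wholly above WT and 0.562% wholly below it in Old, and 1.18% and 1.15% in New. No member lay wholly below WT in Old, in New or in both together, as 0.302%, 0.66% and 0.0802% of all genes did. Between Old and New, no member was separated in either direction (0.728% of all genes higher in Old and 1.06% lower).

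Ifitm1, an interferon-inducible membrane protein of a family that blocks virus entry, had the largest difference of the 33. It stood at 1.65, 1.24, 1.65 and 2.03 FPKM in Old, 1.64, 1.44, 1.83 and 1.96 FPKM in New, and 0.882, 0.662, 1.06 and 0.693 FPKM in WT. The lowest knockout library, at 1.24 FPKM, was above the highest WT library. The means were 1.64 ± 0.322 FPKM in Old, 1.72 ± 0.227 FPKM in New and 0.824 ± 0.185 FPKM in WT (SD, n = 4 each).
The difference was 0.92 on the log2 scale in Old (SE 0.18; 95% interval 0.53 to 1.30; limma adjusted p = 0.688) and 0.99 in New (SE 0.18; 0.60 to 1.37; limma adjusted p = 0.695). For the mean of both strains it was 0.95 (SE 0.15; limma adjusted p = 0.285). A two-sided exact permutation test gave p = 0.0286 in each strain, the smallest that 4 against 4 allows, and p = 0.00202 for the 8 against 4, again the smallest. Groups of 4 that do not overlap always give that smallest p, so it restates the separation. The test was run on members picked by their limma p and was not adjusted. Without Old 1 and WT 4 the differences were 0.84 in Old and 0.92 in New. With a pseudocount of 1 in place of 0.1 they were 0.53 and 0.58. Among libraries with Ddx3y, Ifitm1 ran from 1.64 to 2.03 FPKM in 3 knockouts, against 0.693 FPKM in 1 WT; among those without it, from 1.24 to 1.96 FPKM in 5 knockouts, against 0.662 to 1.06 FPKM in 3 WT. Ifitm1 lies on chromosome 7 (chr7:140967221-140969825, mm10), and 6.36% of the 50-base stretches of its longest transcript also occur in another gene, most in Gm7676, so a small part of its reads could be divided between them.

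The other family members did not follow that separation. Ifitm3, a restriction factor for influenza virus, averaged 6.93 ± 1.53 FPKM in Old, 7.40 ± 0.481 FPKM in New and 7.23 ± 1.34 FPKM in WT (SD, n = 4 each), and its difference was -0.07 in Old (95% interval -0.42 to 0.29) and 0.05 in New (-0.31 to 0.41). Ifitm2 averaged 5.38 ± 0.331 FPKM in Old, 4.96 ± 0.922 FPKM in New and 5.20 ± 1.03 FPKM in WT. Of its transcript, 48.5% of 50-base stretches are shared, most with the overlapping Gm45717, so its level is uncertain. For Ifitm3 the share was 10.0%, most with Gm7676.

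**Figure D2:**
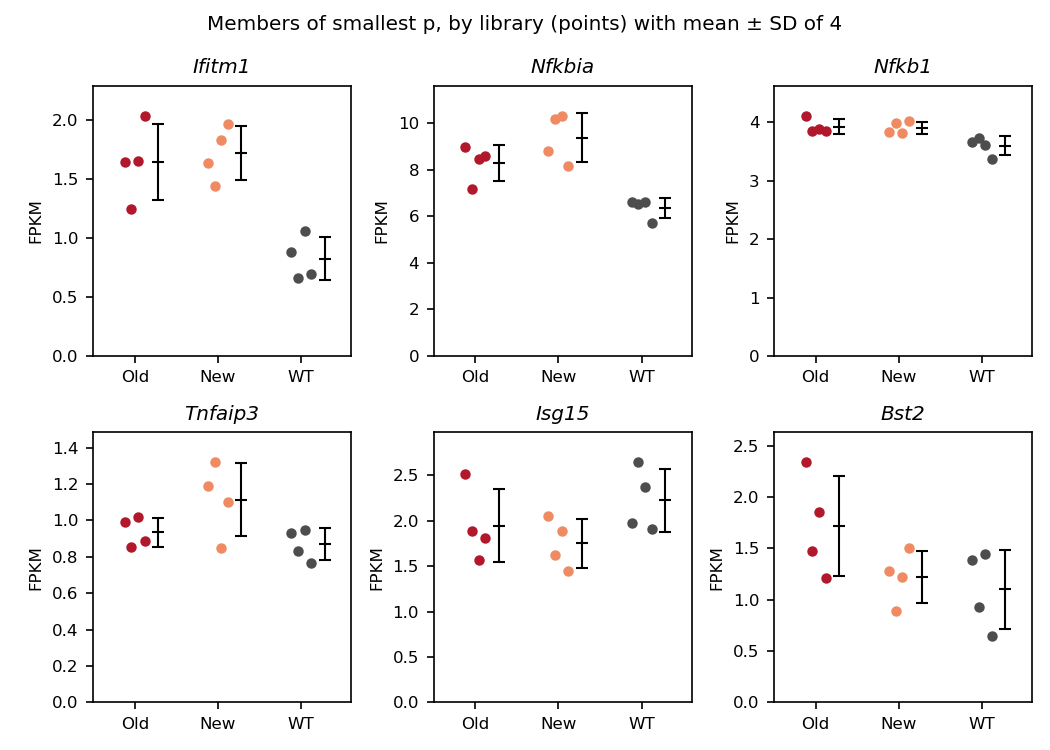
FPKM of Ifitm1, Nfkbia, Nfkb1, Tnfaip3, Isg15 and Bst2 in each library (points) of Old, New and WT, with the mean and SD of 4 beside them. Ifitm1, Nfkbia and Nfkb1 separate all 8 knockout libraries from the 4 WT libraries; Tnfaip3, Isg15 and Bst2 overlap.

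Among the brakes of NF-kappa-B, Nfkbia was higher in every knockout library than in any WT library. This gene for I-kappa-B-alpha, on chromosome 12 (chr12:55489410-55492647), stood at 8.96, 7.18, 8.44 and 8.60 FPKM in Old, 8.81, 10.2, 10.3 and 8.15 FPKM in New, and 6.62, 6.52, 6.62 and 5.72 FPKM in WT. The means were 8.30 ± 0.774 FPKM in Old, 9.36 ± 1.06 FPKM in New and 6.37 ± 0.433 FPKM in WT (SD, n = 4 each). WT 4 was the lowest library of all.
The difference was 0.37 in Old (SE 0.10; 95% interval 0.16 to 0.59; limma adjusted p = 1) and 0.54 in New (SE 0.10; 0.33 to 0.76; limma adjusted p = 0.695). For the mean of both strains it was 0.46 (SE 0.09; limma adjusted p = 0.698). The exact permutation test gave its smallest p, 0.0286 in each strain and 0.00202 for both together. Without Old 1 and WT 4 the differences were 0.29 in Old and 0.49 in New. Old minus New was -0.17 (SE 0.10; limma p = 0.114, adjusted p = 0.985; exact permutation p = 0.229), and its libraries overlapped; without Old 2 it was -0.10. Nfkbia ran from 8.60 to 8.96 FPKM in 3 knockouts with Ddx3y, against 5.72 FPKM in 1 WT, and from 7.18 to 10.3 FPKM in 5 knockouts without it, against 6.52 to 6.62 FPKM in 3 WT.

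Tnfaip3 encodes A20, a ubiquitin-editing enzyme that shuts off signalling upstream of I-kappa-B. It stood at 0.990, 0.851, 1.02 and 0.884 FPKM in Old, 1.19, 1.32, 0.846 and 1.10 FPKM in New, and 0.931, 0.832, 0.949 and 0.764 FPKM in WT. New 1, New 2 and New 4 were above all WT libraries and New 3 was among them. The difference was 0.31 in New (SE 0.14; 95% interval -0.00 to 0.63; limma p = 0.0520, adjusted p = 0.965; exact permutation p = 0.0857) and 0.10 in Old (-0.22 to 0.41). Old minus New was -0.22 (SE 0.14; limma p = 0.161, adjusted p = 0.985; exact permutation p = 0.171); it was -0.14 without New 2 and -0.33 without New 3. Nfkbib, for I-kappa-B-beta, averaged 5.43 ± 1.68 FPKM in Old, 4.92 ± 0.445 FPKM in New and 5.05 ± 1.22 FPKM in WT, with 7.90 FPKM in Old 1 and 6.86 FPKM in WT 4 above the other 10. Socs3, which restrains cytokine receptors that use Stat3, averaged 0.684 ± 0.226, 0.726 ± 0.198 and 0.611 ± 0.108 FPKM in Old, New and WT (SD, n = 4 each).

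Of the transcription factor subunits, Nfkb1 had the least spread of the 33 tested members (residual SD 0.0497 on the log2 scale). Nfkb1, whose product is cut to the p50 subunit, stood at 4.11, 3.85, 3.89 and 3.85 FPKM in Old, 3.83, 3.98, 3.81 and 4.02 FPKM in New, and 3.67, 3.74, 3.62 and 3.37 FPKM in WT. The knockout libraries all lay above WT by a narrow margin. The difference was 0.12 in Old (SE 0.06; 95% interval -0.02 to 0.26; limma adjusted p = 1) and 0.12 in New (SE 0.06; -0.02 to 0.26; limma adjusted p = 0.965). Both strains together gave 0.12 (limma p = 0.0510, adjusted p = 1.00; exact permutation p = 0.00202, the smallest possible). Without Old 1 and WT 4 the difference in Old was 0.07, and after median ratio scaling or quantile normalization of the libraries Nfkb1 overlapped WT in each strain.

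Rela, the p65 subunit, averaged 5.26 ± 1.63 FPKM in Old, 4.94 ± 0.433 FPKM in New and 5.74 ± 1.78 FPKM in WT (SD, n = 4 each). Old 1 at 7.50 FPKM and WT 4 at 8.41 FPKM were above the other 10 libraries, at 3.77 to 5.52 FPKM. Relb and Nfkb2, subunits of the non-canonical branch, were lower, with Relb at 1.12 ± 0.439, 0.926 ± 0.175 and 1.08 ± 0.418 FPKM and Nfkb2 at 0.689 ± 0.113, 0.696 ± 0.0806 and 0.647 ± 0.161 FPKM in Old, New and WT. Stat3, the factor of interleukin-6 family cytokines, was among the steadiest members at 7.53 ± 0.419 FPKM in Old, 7.67 ± 0.0844 FPKM in New and 7.48 ± 0.459 FPKM in WT. Its interval was -0.14 to 0.16 in Old and -0.11 to 0.19 in New.

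The receptors and adaptor gave no separation. Tnfrsf1a, a receptor for TNF, stood at 2.99, 2.57, 2.51 and 2.87 FPKM in Old, 2.64, 2.35, 2.03 and 2.51 FPKM in New, and 2.61, 2.08, 2.98 and 3.18 FPKM in WT. Old minus New was 0.20 (SE 0.13; limma p = 0.169, adjusted p = 0.985; exact permutation p = 0.114), with New 1 above the lower pair of Old libraries; without New 3 it was 0.12. Il6st, the signalling chain gp130, averaged 14.8 ± 1.50 FPKM in Old, 15.7 ± 0.693 FPKM in New and 14.5 ± 2.55 FPKM in WT. Il1r1, the interleukin-1 receptor, averaged 1.12 ± 0.258, 1.28 ± 0.207 and 1.14 ± 0.285 FPKM, and Myd88, the adaptor of Toll-like and interleukin-1 receptors, 1.50 ± 0.296, 1.35 ± 0.141 and 1.31 ± 0.400 FPKM in Old, New and WT (SD, n = 4 each). Tlr4, the endotoxin receptor, and Icam1, an NF-kappa-B target that binds leukocytes, had 12-library means of 0.495 and 0.402 FPKM and were not tested.

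**Figure D3:**
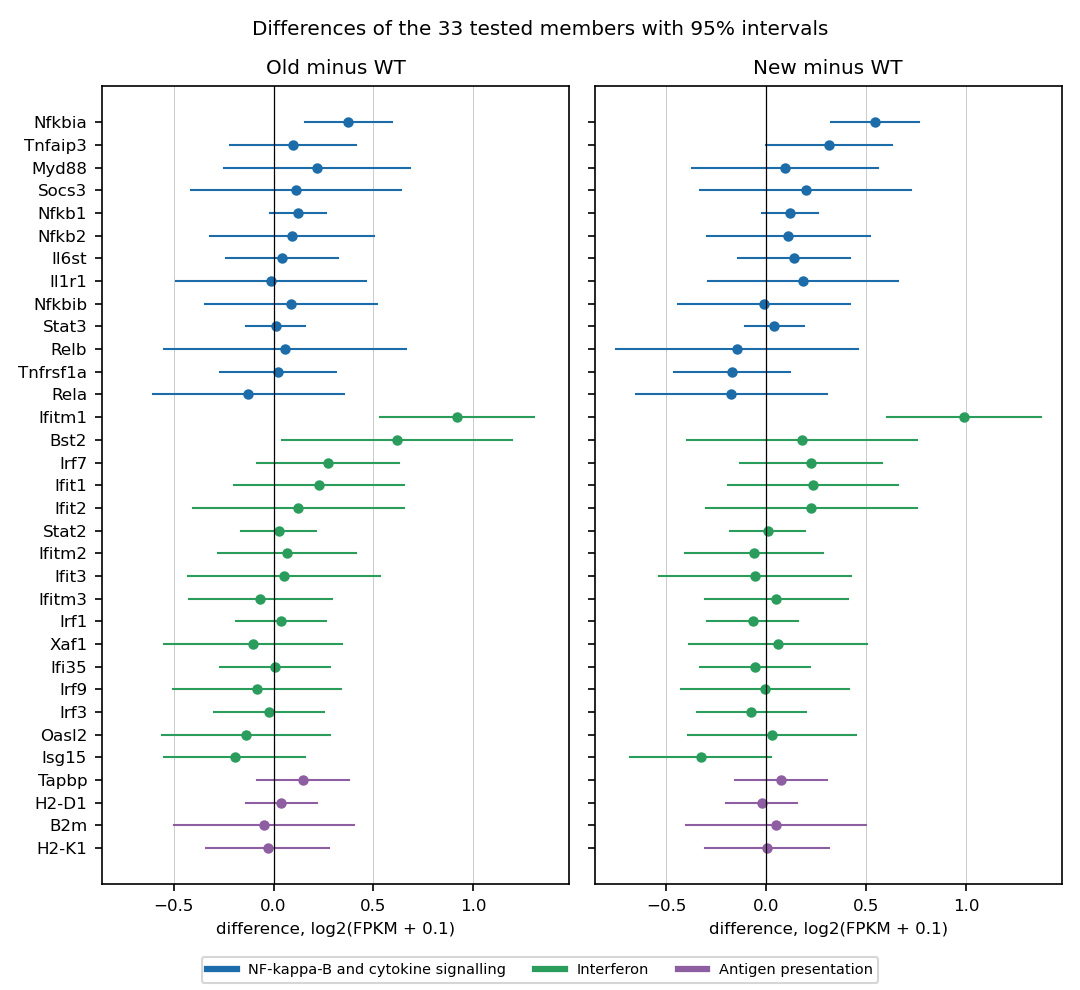
Difference from WT in Old (left) and New (right) of the 33 tested members on the log2(FPKM + 0.1) scale, with 95% intervals and colours by role. Ifitm1 (0.92 and 0.99) and Nfkbia (0.37 and 0.54) lie to the right of 0 with their whole interval in both panels, and Bst2 (0.62) in Old.

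Among interferon-induced genes, Isg15 had differences of the opposite sign to Ifitm1, which did not pass the test. Isg15, a ubiquitin-like modifier and a common index of interferon exposure, stood at 2.51, 1.89, 1.57 and 1.81 FPKM in Old, 2.05, 1.62, 1.88 and 1.45 FPKM in New, and 1.98, 2.64, 2.37 and 1.91 FPKM in WT. Old 1 lay among the WT libraries and the other 3 Old libraries lay below all 4. The difference was -0.19 in Old (SE 0.16; 95% interval -0.55 to 0.16), -0.33 in New (SE 0.16; -0.68 to 0.02; limma p = 0.0655, adjusted p = 0.965; exact permutation p = 0.114) and -0.26 for both (limma p = 0.0874, adjusted p = 1.00; exact permutation p = 0.0990). Without Old 1 and WT 4 it was -0.39 in Old (limma adjusted p = 0.777), -0.40 in New and -0.39 for both.

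Bst2, or tetherin, which holds budding viruses at the cell surface, stood at 2.33, 1.47, 1.85 and 1.21 FPKM in Old, 1.28, 0.893, 1.22 and 1.50 FPKM in New, and 1.39, 0.927, 1.44 and 0.645 FPKM in WT. Old 1 was the highest library and WT 4 the lowest. The difference in Old was 0.62 (SE 0.26; 95% interval 0.04 to 1.20; limma p = 0.0374, adjusted p = 1; exact permutation p = 0.114). Without Old 1 and WT 4 it was 0.26 (limma adjusted p = 0.912), and without WT 4 alone 0.41. Old minus New was 0.44 (SE 0.26; limma p = 0.122, adjusted p = 0.985; exact permutation p = 0.200), and 0.29 without Old 1. Bst2 lies on chromosome 8 (chr8:71534255-71537456), as Plat does (chr8:22757727-22782844).

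The IFIT genes, whose products bind viral RNA, had libraries that overlapped between groups. Ifit1 averaged 1.18 ± 0.265 FPKM in Old, 1.17 ± 0.0560 FPKM in New and 1.00 ± 0.252 FPKM in WT, and Ifit2 2.34 ± 0.618, 2.44 ± 0.125 and 2.15 ± 0.632 FPKM in Old, New and WT (SD, n = 4 each). The difference of Ifit1 had an interval of -0.20 to 0.65 in Old and -0.19 to 0.66 in New, too wide to show that its level was equal. Its residual SD was 0.276, and 0.143 without Old 1 and WT 4. Ifit3 averaged 1.52 ± 0.307, 1.38 ± 0.0873 and 1.50 ± 0.511 FPKM, and is uncertain because 51.2% of the 50-base stretches of its transcript are shared, most with Ifit3b. Old 1 and WT 4 were the lowest libraries for all 3 genes. Oasl2, of the oligoadenylate synthetase family, Xaf1, a regulator of apoptosis, and Ifi35 ranged over the 12 libraries from 0.455 to 0.929 FPKM, 0.450 to 0.870 FPKM and 0.791 to 1.06 FPKM. Usp18, which removes Isg15 from proteins, and Rsad2, or viperin, had means of 0.383 and 0.268 FPKM and were not tested.

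The factors that carry the interferon signal showed intervals that spanned 0 in both strains. Stat2, a part of the complex ISGF3, averaged 4.21 ± 0.318 FPKM in Old, 4.15 ± 0.331 FPKM in New and 4.13 ± 0.287 FPKM in WT, with intervals of -0.16 to 0.21 in Old and -0.18 to 0.19 in New. Its partner Irf9 averaged 2.60 ± 0.458, 2.76 ± 0.539 and 2.79 ± 0.714 FPKM in Old, New and WT. Irf3, which starts interferon production, averaged 4.50 ± 0.894, 4.28 ± 0.267 and 4.52 ± 0.405 FPKM, and Irf1 1.73 ± 0.187, 1.60 ± 0.165 and 1.67 ± 0.0270 FPKM. Irf7, the inducible amplifier of interferon production, averaged 0.760 ± 0.0977 FPKM in Old, 0.731 ± 0.0942 FPKM in New and 0.615 ± 0.116 FPKM in WT (SD, n = 4 each), with intervals of -0.08 to 0.63 in Old and -0.13 to 0.58 in New.

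Class I antigen presentation was led by B2m, the light chain of every class I molecule, at 54.8 ± 11.2 FPKM in Old, 57.6 ± 5.52 FPKM in New and 57.3 ± 14.3 FPKM in WT (SD, n = 4 each). Old 1 at 38.7 FPKM and WT 4 at 35.9 FPKM set most of that spread, and the other 10 libraries ran from 50.4 to 65.6 FPKM. The difference had an interval of -0.50 to 0.40 in Old and -0.40 to 0.50 in New. The heavy chain H2-K1 averaged 4.82 ± 0.839, 4.90 ± 0.384 and 4.93 ± 0.906 FPKM, and H2-D1 6.74 ± 0.272, 6.45 ± 0.312 and 6.58 ± 0.697 FPKM in Old, New and WT.
For H2-D1 the intervals were narrow, -0.14 to 0.22 in Old and -0.20 to 0.15 in New; for H2-K1 they were -0.34 to 0.28 and -0.31 to 0.31. These chains resemble each other and other class I genes, and 14.3% of the 50-base stretches of H2-D1 and 8.79% of those of H2-K1 are shared, so their division is uncertain. Tapbp, or tapasin, which joins class I molecules to the peptide transporter, averaged 6.77 ± 1.05, 6.38 ± 0.293 and 6.07 ± 0.480 FPKM. Exons of other genes overlap 29.0% of its exonic bases, most from Gm19412 on the opposite strand, and the libraries do not mark strand. The same limit holds for Nfkb2 (18.1% of exonic bases), Ifi35 (16.8%), Nfkbib (16.4%) and Myd88 (11.3%). In each of these the largest overlap is with a gene on the opposite strand. The transporter Tap1 (0.464 FPKM) and the immunoproteasome subunits Psmb8 (0.378 FPKM) and Psmb9 (0.344 FPKM) were below the minimum, and Psmb8 was listed at 0 in New 2, the 1 such value among the 40 genes.

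By sign, 23 of the 33 members lay above WT in Old and 21 in New, with median differences of 0.04 and 0.05. Of all tested genes, 65.3% lay above WT in Old and 65.5% in New (medians 0.03 and 0.06), so the members' share was close to the background. In NF-kappa-B and cytokine signalling, 11 of 13 lay above WT in Old and 9 of 13 in New; among interferon genes, 10 of 16 and 9 of 16; in antigen presentation, 2 of 4 and 3 of 4. Without Old 1 and WT 4 the members above WT were 19 in Old, beside 49.1% of all genes, and 18 in New, beside 47.8%. An unadjusted p under 0.05 was then met by 3 members in Old and 3 in New, beside 6.06% and 10.8% of all genes. After median ratio scaling, which moved the share of all genes to 50.8% in Old and 50.3% in New, 19 and 15 members lay above WT.

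Old 1 and WT 4 moved with many of these genes in step with base composition. Over the 33 tested members, the mean of Old 1 and WT 4 minus that of the other 10 libraries correlated with the GC content of the longest coding transcript (Spearman 0.84, Pearson 0.90), as a description, since all points share the same 12 libraries. It was 0.86 for Relb (61.1% GC), 0.73 for Rela (59.4%) and 0.65 for Nfkbib (58.8%), and -0.69 for B2m (41.2%), -0.72 for Il1r1 (43.9%) and -0.86 for Ifit2. In 10 members (30.3%) both libraries lay above the other 10, and in 7 (21.2%) both lay below. Of all tested genes, 19.9% did so above and 40.3% below, so such a departure was common throughout these libraries. Nfkb1, at -0.04 (53.1% GC), Nfkbia, at -0.16 (52.9%), and Ifitm1, at -0.32 (50.7%), were in neither set. Their separation of Old from WT fixes that in advance, and a mean of the pair hides opposite deviations. Old 1 and WT 4 deviated from the mean of all libraries by 0.11 and -0.17 for Nfkb1, 0.18 and -0.46 for Nfkbia, and 0.30 and -0.84 for Ifitm1. The median residual SD was 0.237 for the members, against 0.228 for all tested genes.

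**Figure D4:**
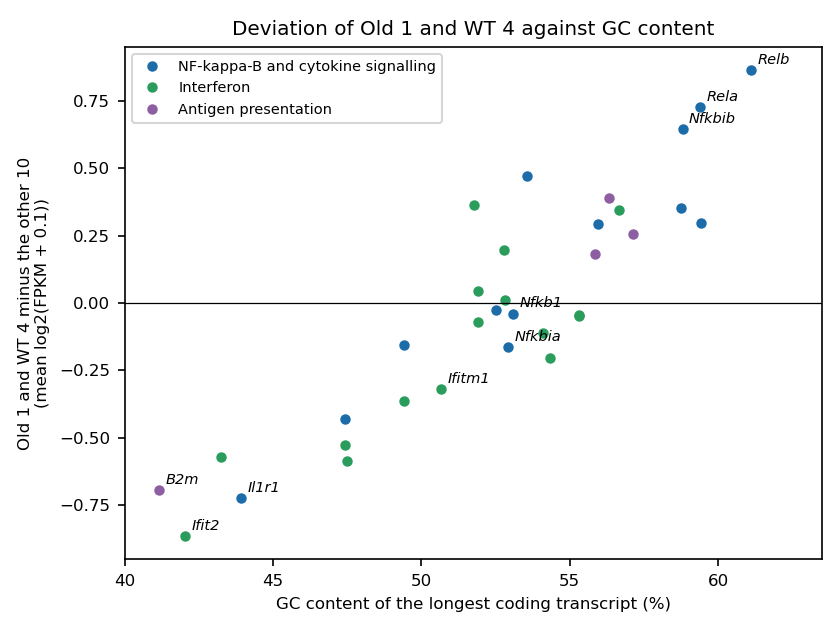
Mean of Old 1 and WT 4 minus the mean of the other 10 libraries, in log2(FPKM + 0.1), against GC content of the longest coding transcript for the 33 tested members (points, coloured by role). Values climb from -0.86 for Ifit2 to 0.86 for Relb at 61.1% GC, with Nfkb1 near 0.

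**Figure D5:**
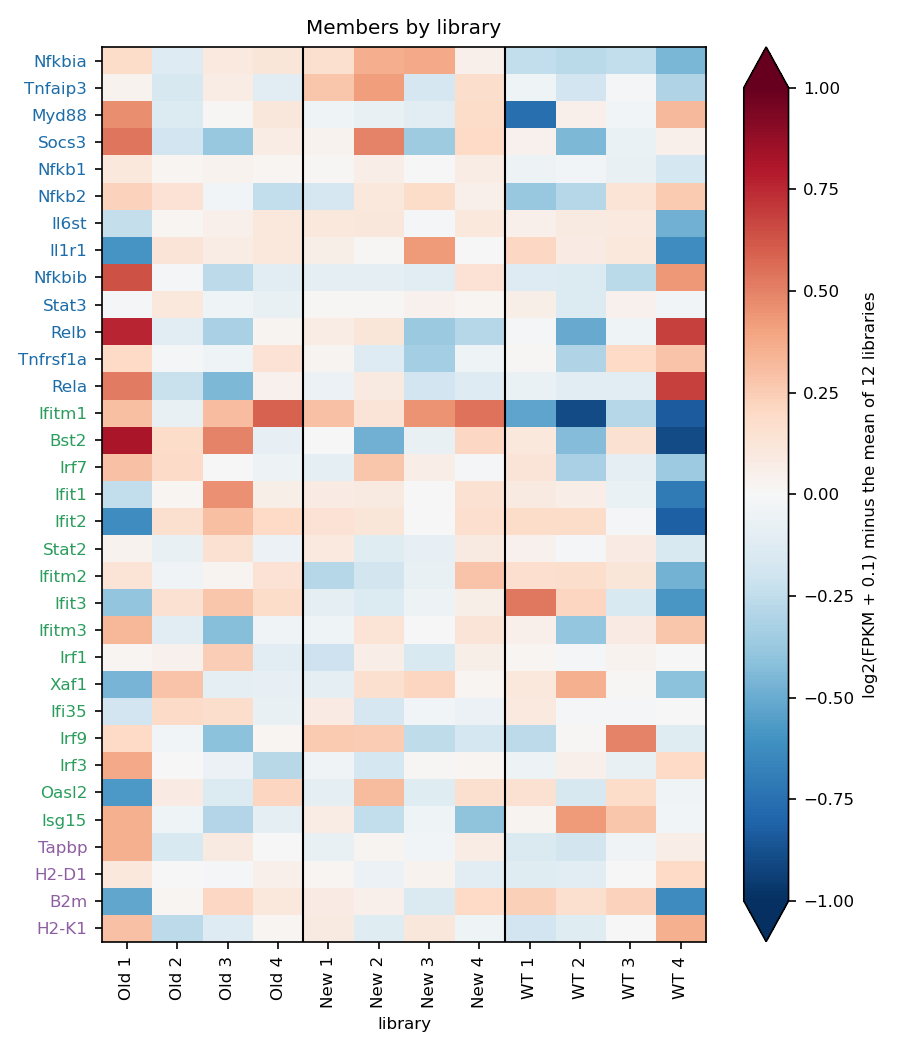
Deviation of each tested member (rows, gene labels coloured by role) from its 12-library mean in each library (columns), in log2(FPKM + 0.1). The rows of Ifitm1, Nfkbia and Nfkb1 are below their mean in all 4 WT libraries, and the columns of Old 1 and WT 4 hold many of the strongest colours, with medians over the 33 members of 0.18 and -0.03.

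Summed markers of the cells that could carry these genes were set beside the results. The 13 microglial markers summed to 133 to 150 FPKM in Old, 136 to 142 in New and 131 to 146 in WT. The 8 endothelial markers summed to 49.0 to 53.3, 50.7 to 57.3 and 52.3 to 56.6 FPKM, and the 6 astrocyte markers to 387 to 440, 419 to 431 and 368 to 436 FPKM in Old, New and WT. These 3 sums overlapped between groups. For microglia, the overlap of New with WT came from WT 4, at 146 FPKM. WT 1 to WT 3, at 131, 133 and 132 FPKM, lay below all New libraries. Without Old 1 and WT 4, Old still overlapped WT in all 3 sums, as did New in the endothelial and astrocyte sums. Of the 13 microglial markers, 13 then lay above WT in New, beside 47.8% of all genes, and 9 in Old, beside 49.1%. The part of microglia in the results was not tested. The 6 oligodendrocyte markers summed to 1518 to 1685 FPKM in Old and 1577 to 1725 FPKM in New, against 1395 to 1510 FPKM in WT. These sums lay wholly above WT in both strains, as Ifitm1, Nfkbia and Nfkb1 did. Singly, 1 of the 6 oligodendrocyte markers did so in Old, beside 0.796% of all genes, and 3 in New, beside 1.94%. After median ratio scaling 2 and 3 did, beside 0.488% and 1.18% of all genes. After quantile normalization 0 and 2 did, beside 0.63% and 1.21%. The sums themselves were not rescaled. The part of these markers in the results of the 3 members was not tested. Of 10 lymphocyte and granulocyte markers, 9 were in the table and summed to 1.26 to 3.50 FPKM in Old, 0.999 to 2.85 in New and 0.702 to 4.36 in WT. Cd3g, Ms4a1 and Ncr1 stayed below 0.1 FPKM in all libraries, Cd3e reached 0.176 FPKM at most, and S100a9 led with up to 2.08 FPKM.

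Of 114 further genes of the same pathways, 81 were tested and 0 passed in any comparison (limma). An unadjusted p under 0.05 was met by 3 of the 81 in Old minus WT (3.70%, against 1.67% of all genes) and 1 in New minus WT (1.23%, against 2.22%). Of other NF-kappa-B and cytokine genes, 22 of 30 lay above WT in Old and 21 of 30 in New; of other interferon genes, 18 and 23 of 35; of other antigen presentation genes, 10 and 13 of 16. Over the 81 that is 61.7% in Old and 70.4% in New, beside 65.3% and 65.5% of all genes. The 3 in Old minus WT were H2-T23, Ifi27l2a and Psme2.
H2-T23, the non-classical class I molecule Qa-1, stood at 0.515, 0.384, 0.428 and 0.467 FPKM in Old, 0.624, 0.586, 0.615 and 0.606 FPKM in New, and 0.701, 0.749, 0.642 and 0.910 FPKM in WT. The 3 groups did not overlap, with Old lowest and WT highest. Of all genes, 0.302% lay wholly below WT in Old and 0.66% in New, and 1.06% lay wholly lower in Old than in New. Old 2, Old 3 and Old 4 were below 0.5 FPKM. Sharing of its stretches with other class I genes was not examined. Over 21 alternatives the difference in Old ran from -0.73 to -0.27. The difference was -0.63 in Old (SE 0.15; limma adjusted p = 1) and -0.26 in New (SE 0.15; 95% interval -0.59 to 0.08), and Old minus New was -0.37 (limma adjusted p = 0.985). Psme2, a subunit of the interferon-inducible proteasome activator PA28, stood at 9.64, 11.7, 10.2 and 11.6 FPKM in Old, 10.7, 11.1, 10.9 and 11.2 FPKM in New, and 9.91, 9.92, 8.99 and 8.81 FPKM in WT. New lay wholly above WT, as 1.94% of all genes did, and Old overlapped it through Old 1. The differences were 0.19 in Old (limma adjusted p = 1) and 0.22 in New (limma adjusted p = 0.965).
Ifi27l2a, an interferon-induced gene, stood at 0.628, 0.413, 0.669 and 0.154 FPKM in Old, 0.596, 0.970, 0.980 and 0.163 FPKM in New, and 1.21, 0.805, 1.10 and 1.30 FPKM in WT. Old lay wholly below WT, as 0.302% of all genes did, and New overlapped it. The differences were -1.19 in Old (SE 0.46, limma adjusted p = 1) and -0.81 in New (SE 0.46, limma adjusted p = 0.965). Without New 4 the difference in New was -0.35. In NF-kappa-B signalling, the I-kappa-B-epsilon gene Nfkbie differed by -0.32 in Old (SE 0.16; limma adjusted p = 1), and by -0.21 without WT 4. The adhesion molecule Vcam1 differed by 0.26 in New (SE 0.14; limma adjusted p = 0.965), and by 0.15 without WT 4. Tradd, the adaptor of the TNF receptor, differed by -0.54 in New (SE 0.31, limma adjusted p = 0.965), and by -0.26 without WT 4. Its New libraries, at 0.999 to 1.18 FPKM, lay wholly below WT, at 1.28 to 2.94 FPKM, as 0.66% of all genes did. Old overlapped WT. The kinase gene Ikbkb in Old (-0.12), the interferon factor Irf5 in Old (0.15), the receptor chain Ifngr2 in New (0.15) and the class I gene H2-M3 in New (0.48) had an unadjusted limma p above 0.05. Leaving out 1 library moved Ikbkb to -0.07 (without WT 3), Irf5 to 0.05 (without Old 1) or 0.26 (without Old 4) and Ifngr2 to 0.02 (without WT 4).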

How the data were processed

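Brain RNA of 12 mice was sequenced, 4 in each of 3 groups taken from the sample titles. Per the labels' protocols, libraries were made from polyA RNA with a kit that does not mark strand, although a label describes ribosomal RNA depletion, and 4 were multiplexed per lane; lane assignments were not stated. The authors deposited 1 table of FPKM values. The tools, per the submitters' processing notes, were Cuffdiff 2.1.1, Cufflinks, TopHat2 2.0.9 and Bowtie2 2.1.0, with mm10. Their gene annotation and library scaling were not stated there. FPKM holds no counts, so depth is unknown, and only the spread between mice measures precision. FPKM sums were 385096 to 527104 per library, 13755 to 14198 genes reached 1 FPKM, and no 2 libraries were identical.

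Genes with a mean of at least 0.5 FPKM were analysed as log2(FPKM + 0.1), which understates differences of low genes, with limma 3.58.1 (trended empirical Bayes, R 4.3.3). All 3 groups entered 1 fit, and p-values were adjusted by Benjamini-Hochberg over 16203 genes with a threshold of 0.05. The code was tested on simulated data with independent genes, without the shared departure of Old 1 and WT 4. That test does not give the size of change that these libraries could show. The 4 members of smallest limma p in each comparison were also tested by two-sided exact permutation of the mean log2 difference, without adjustment. GC content, shared 50-base stretches and exon overlaps come from GENCODE M21, promoters from RefSeq.

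The members and lists were chosen with earlier results of these data known. Named in full are the 4 members of smallest p in each comparison and, of each other list, the 2 genes of smallest p in Old and in New; other members are given by level. Alternatives were 2 other pseudocounts, 2 filters, 2 scalings, only the groups compared, library weights, a term for Ddx3y, and leaving out each library or Old 1 and WT 4 together. Replicate numbers of WT come from titles and those of Old and New from accession order.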

Additional observations from a re-analysis of the deposited data

Results flagged for a closer look

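The 33 tested members gave 99 groups of 4 libraries, and in 11 of them 1 library lay far from the other 3 (by Dixon's criterion for a gap against the group's range). Chance flags about 1 in 20 groups, or 4.95 of the 99. In 8 of the 11 the library was Old 1 or WT 4. In WT 4, Rela stood high at 8.41 FPKM beside 4.80 to 4.94 FPKM and Nfkbib high at 6.86 FPKM beside 4.16 to 4.60 FPKM in the other 3 WT libraries. Low values in WT 4 were B2m at 35.9 FPKM beside 62.3 to 65.6, Il6st at 10.7 FPKM beside 15.4 to 16.0, Ifitm2 at 3.67 FPKM beside 5.58 to 5.79, and Nfkbia at 5.72 FPKM beside 6.52 to 6.62. In Old 1, Nfkb1 stood high at 4.11 FPKM beside 3.85 to 3.89, and Il1r1 low at 0.737 FPKM beside 1.22 to 1.28. In New 3, Il1r1 stood high at 1.59 FPKM beside 1.16 to 1.21 and Il6st low at 14.7 FPKM beside 16.0 to 16.2. In New 4, Nfkbib stood high at 5.59 FPKM beside 4.67 to 4.74 FPKM.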

How the results depend on the processing

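Over 22 alternatives, 0 members and 0 of the other pathway genes passed in any comparison, and the members named in full kept their direction in each comparison for which they were named. Ifitm1 ranged from 0.53 to 1.04 in Old (adjusted p 0.281 to 1) and from 0.58 to 1.10 in New (0.162 to 1). Nfkbia ranged from 0.28 to 0.44 in Old (0.587 to 1) and from 0.49 to 0.61 in New (0.156 to 1). Tnfaip3 had no value with the filter at 1 FPKM. The genes called among all tested moved more. In Old minus WT they were 4, against 2 with only the groups compared and 8 with library weights or without Old 1 and WT 4 (3 to 4 when 1 library was left out). In New minus WT they were 1, and 2 with weights or without that pair. In Old minus New they were 2, against 1 with the filter at 1 FPKM, 14 with weights and 6 without the pair (2 to 3 when 1 library was left out). For the mean of both strains they were 2, against 1 with a pseudocount of 0.01, the filter at 1 FPKM, quantile normalization or only the groups compared, 5 with weights and 3 without the pair (1 to 3 when 1 library was left out). Members wholly below WT in Old were 0, but 1 (Isg15) without the pair, when 5.20% of all genes were, and 0 to 1 when 1 library was left out (1 without Old 1, beside 1.07% of all genes). In New they were 0 to 2, with 2 without New 1, beside 1.02% of all genes. Members wholly above WT in New were 3, against 2 under either scaling and 3 to 5 when 1 library was left out (5 without New 3, beside 3.03% of all genes). Between strains, members wholly higher in Old were 0, but 1 without the pair, beside 3.36% of all genes, and 0 to 1 when 1 library was left out, and those wholly lower 0 to 1 (1 without Old 2 or New 3, beside 2.37% and 2.28% of all genes). The causes of these moves were not tested. No paired analysis was possible because replicate numbers of WT come from titles and those of Old and New only from accession order.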
